A study of Danio rerio with 24 samples.

Results

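Newly made secretory and membrane proteins fold inside the endoplasmic reticulum (ER). There, chaperones such as hspa5 (BiP) hold unfolded chains, the lectins calnexin and calreticulin hold glycoproteins, and protein disulphide isomerases form disulphide bonds. When unfolded protein builds up, 3 membrane sensors, ern1 (IRE1), eif2ak3 (PERK) and atf6, start the unfolded protein response, through splicing of the xbp1 mRNA, translation of atf4 and cleavage of atf6. The response raises chaperones, degradation from the ER and genes of amino acid supply, and neurons, which carry many adhesion proteins and receptors to their synapses, use the same machinery.

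The genes described here are 48 zebrafish symbols of ER chaperones, folding enzymes, stress sensors, their targets, ER degradation and protein entry. They were chosen by name, with earlier results of these data known, and followed through the levels of 37241 genes. The symbols led to 48 Ensembl identifiers. Of these, 44 symbols matched directly and 4 matched after the paralog letter was dropped. dnajb9a and dnajb9b share 2 identifiers listed as DNAJB9, and which of them is a or b is not told. serpinh1b led to 2 identifiers listed as SERPINH1. atf6b led only to the identifier of atf6, so it has no level of its own here.

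The data were poly(A) RNA-seq counts of whole brains of adult zebrafish, described here for 15 libraries of 5 genotypes with 3 libraries each. The genotypes were wild type (wt) and 4 homozygous double mutants made with CRISPR/Cas9, each lacking the same part of both copies of a neurexin, a presynaptic adhesion molecule. In nrxn2a full 2b full and nrxn3a full 3b full, the whole of both genes was deleted (nrxn2 full and nrxn3 full). In nrxn2 tmr and nrxn3 tmr the transmembrane region in the last exon of both genes was removed. Per the paper, wt and all lines were in the AB background. Each genotype was 1 line, the labels name no drug, and the eyes were removed before the brains were taken out, within 3 days for all lines. The age beyond adult, the sex and whether a library held 1 brain or several are not given in the sources used here, so p-values measure the spread between libraries. In whole brains, fewer cells of a type and less RNA per cell cannot be told apart.

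Total counts ran from 28512102 to 38016650 per library. The targeted genes followed the labels: nrxn2a and nrxn2b stood at 8.65% and 30.3% of the wt mean in nrxn2 full, and the identifier listed as NRXN3 and nrxn3b at 11.3% and 0.0427% in nrxn3 full, whereas in the tmr lines the targeted genes stood at 94.9% or more. Neuronal markers were present in each library, with summed normalised counts from 407983 to 447433. Markers of eye summed to 13954 to 63343 in wt and to 410.4 to 24257 in the 4 lines, with medians of 45062 and 955.3. Summed skin markers ran from 244.5 to 1377 in wt and from 18.99 to 1348 in the lines, and 1 wt library had 2338 for muscle against at most 231.9 in the lines. Summed blood markers ran from 17698 to 27673 in wt and from 22002 to 23983 in nrxn2 full, but lay below wt in nrxn2 tmr (7281 to 16070), nrxn3 full (6151 to 10227) and nrxn3 tmr (9090 to 15090). The part of these tissues in the results below was not tested.

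Of the 48 identifiers, 44 had at least 10 counts in at least 3 libraries and were tested. The other 4 were manf and cdnf, neurotrophic factors kept in the ER, creld2, an ER stress gene of mammals, and dnajc3a, a co-chaperone of BiP. manf and cdnf had no count in any of the 15 libraries, dnajc3a had 1 count in all and creld2 had 3 counts in all. Only this annotation was counted, and whether reads of these genes fell elsewhere was not tested. A count of 0 allows up to 3 counts over the libraries concerned. Since manf is known as a common ER stress gene, its level of 0 in every library, wt included, says nothing about the lines.

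The shares called show how far the ER genes differed from genes at large. A gene was called at a Benjamini-Hochberg adjusted p under 0.05 in edgeR, over all 23641 genes tested. In nrxn2 full, 4 of 44 members were called (9.09%), beside 9.65% of all genes. In nrxn2 tmr, 5 were called (11.4%), beside 8.48%. In each nrxn3 line 4 members were called (9.09%), beside 8.13% in nrxn3 full and 7.32% in nrxn3 tmr. The shares thus lay close to the background on both sides.

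Across the 176 pairs of a member and a line, 17 were called (9.66%), beside 8.4% of the pairs of all genes, and 12 of the 44 members (27.3%) were called in at least 1 line, beside 21% of all genes. By role, 1 of 40 pairs was called among luminal chaperones (2.5%), 5 of 28 among sensors and transcription factors (17.9%) and 3 of 16 among targets of the integrated stress response (18.8%). These are few calls, 3 of the 5 sensor pairs being ern1 and 2 of the 3 target pairs being trib3, and both trib3 calls were lost when single libraries were left out. The lines share the same 3 wt libraries, so these counts are not independent of each other.

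These small counts moved when single libraries were left out. The highest counts were then 6 in nrxn2 full, 5 in nrxn2 tmr, 6 in nrxn3 full and 5 in nrxn3 tmr. The lowest count was 0 in nrxn2 full, without wt replicates 1 or 5 or nrxn2 full replicate 2. It was 3 in nrxn2 tmr without wt replicate 5 or nrxn2 tmr replicate 2, 2 in nrxn3 full without nrxn3 full replicate 3, and 2 in nrxn3 tmr without nrxn3 tmr replicate 3. Counts over all genes fell as well, from 2282 to 1509 in nrxn2 full without its replicate 2. Without replicate 3 of the line they fell from 1923 to 1119 in nrxn3 full and from 1730 to 1145 in nrxn3 tmr. In nrxn2 tmr they ran from 1239 to 1741 with 1 library left out, against 2004.

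**Figure D1:**
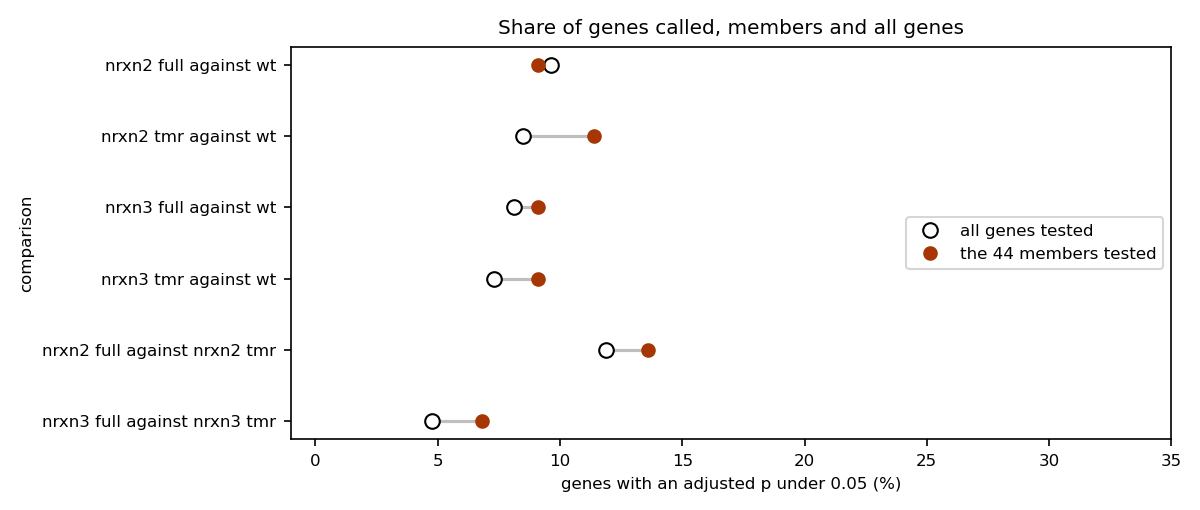
Share of genes with an adjusted p under 0.05 (x axis, %) in each of 6 comparisons (y axis), for the 44 ER members tested (filled) and for all 23641 genes tested (open). The filled points lie within a few percentage points of the open ones, for example 9.09 against 9.65 in nrxn2 full and 13.6 against 11.9 between the nrxn2 lines.

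The members also moved less, as a rule. The median absolute log2 fold change against wt was 0.11 in nrxn2 tmr for the members and 0.23 for all genes, and in nrxn3 full, where the members moved most, it was 0.16 and 0.23. The signed median of the members ran from -0.10 in nrxn3 full to 0.05 in nrxn2 full, while that of all genes stayed within 0.01 of 0. In nrxn3 full, 35 of 44 members lay below wt, and in nrxn2 full 25 lay above. Genes at large include many with low counts, and the part of the count level in these medians was not tested.

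**Figure D2:**
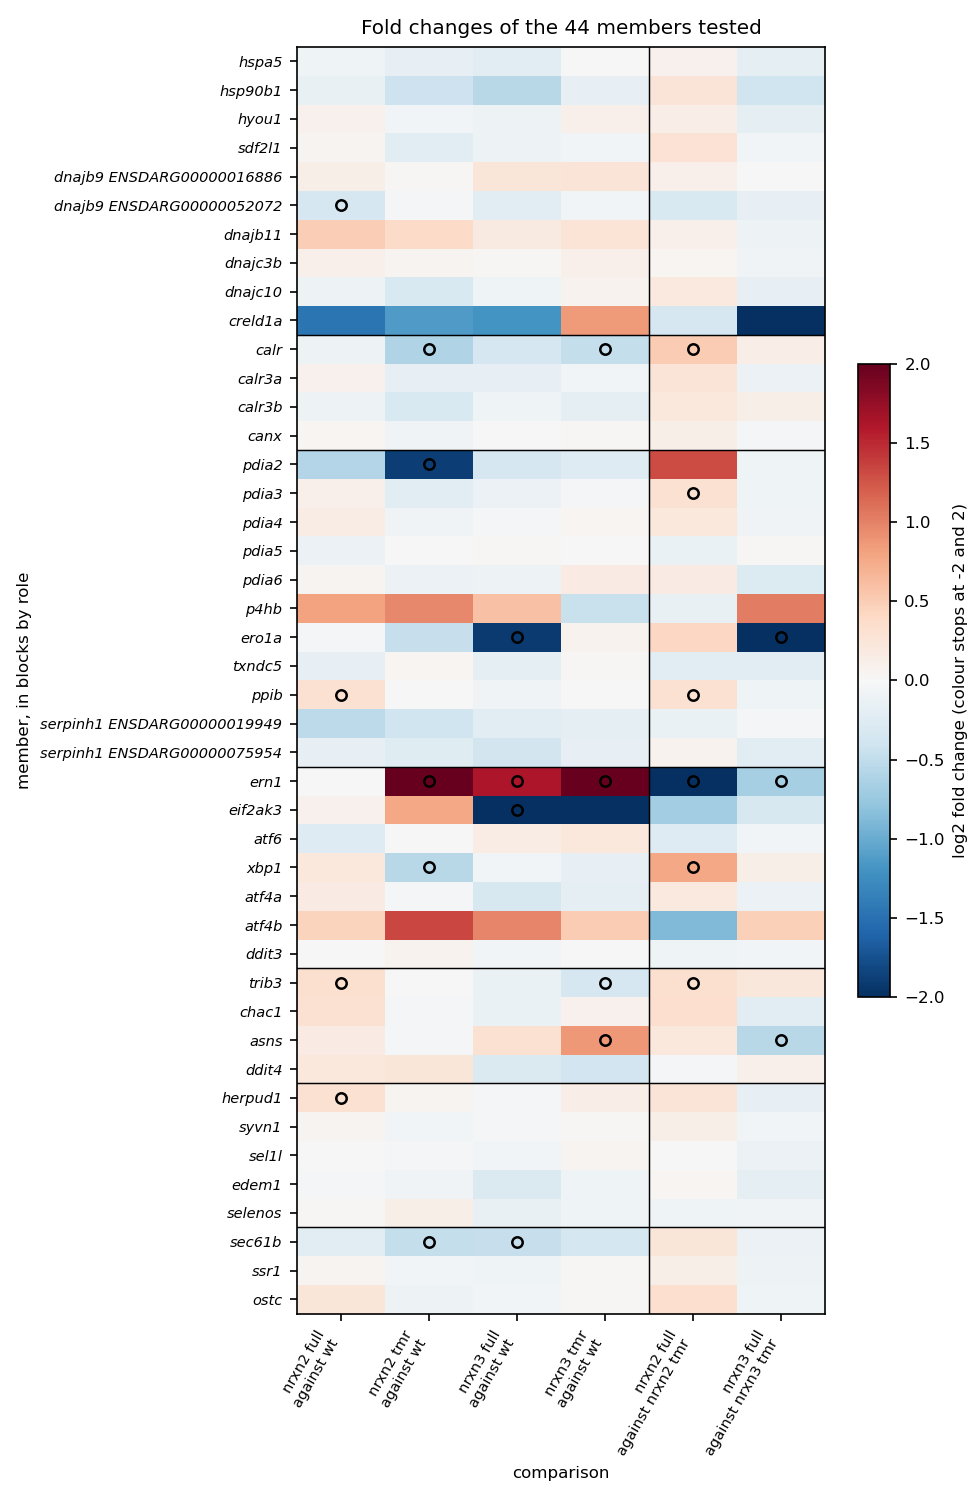
Log2 fold changes of the 44 members tested (rows, in blocks by role) in 6 comparisons (columns). Colour gives the log2 fold change and stops at -2 and 2, and circles mark an adjusted p under 0.05. Most cells are pale, and the dark cells belong to a few rows, ern1, eif2ak3, ero1a, p4hb, atf4b, creld1a and pdia2.

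Among the luminal chaperones, which ER stress is known to raise, no gene was called higher in any line. hspa5, the main Hsp70 of the ER, measured 8178, 7894 and 8570 normalised counts in wt. In nrxn3 full it measured 6860, 7252 and 7257, the lowest mean of the 5 genotypes at 86.7% of wt, and in nrxn2 tmr 6749, 7575 and 7673, at 89.3%. Neither range overlapped that of wt. The log2 fold change in nrxn3 full was -0.21 (SE 0.07) and was not called (edgeR, adjusted p = 0.0708). The 95% intervals of its fold changes in the 4 lines reached from -0.35 to 0.13, which bounds the size of any change.

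hsp90b1, the Hsp90 of the ER, had 4053, 3950 and 4834 normalised counts in wt and 2559, 3041 and 3112 in nrxn3 full, at 67.9% of wt. The groups did not overlap, but the difference missed the threshold (log2 fold change -0.56, SE 0.19, adjusted p = 0.0731). It lay below wt in each of the 4 lines, from -0.56 to -0.15, with no call. dnajb11, a co-chaperone of BiP, lay on the other side of wt: it had 2045, 1682 and 2163 in wt and 2420, 2976 and 2891 in nrxn2 full, at 141% of wt, with no overlap (log2 fold change 0.49, SE 0.16, adjusted p = 0.0529). It lay above wt in the 4 lines, from 0.18 to 0.49, again with no call. The differences of both genes use the same wt libraries, and none was called.

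hsp90b1 and dnajb11 were 2 of 14 members on one side of wt in all 4 lines. Below wt were hspa5, hsp90b1, dnajb9 (ENSDARG00000052072), calr, calr3b, pdia2, both serpinh1 identifiers, edem1 and sec61b, 10 of 44 members (22.7%) beside 20.4% of all genes. Above wt were dnajb9 (ENSDARG00000016886), dnajb11, dnajc3b and atf4b, 4 of 44 (9.09%) beside 18.2%. The 4 lines share the wt libraries, so their sides are not independent.

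Among the other luminal chaperones, 5 had small fold changes and no call. hyou1, an ER chaperone of the Hsp110 kind and nucleotide exchange factor of BiP, had log2 fold changes from -0.10 to 0.10 in the 4 lines, with intervals within -0.43 and 0.43. sdf2l1 ran from -0.23 to 0.06, dnajc10, which reduces disulphides, from -0.30 to 0.07, and dnajc3b, a co-chaperone that also restrains PERK, from 0.03 to 0.10. The dnajb9 identifier ENSDARG00000016886, of an ERdj4 co-chaperone, ran from 0.02 to 0.25. None of these 5 was called in any line. creld1a, counted with the luminal proteins, had few counts that varied widely inside genotypes and is described with such genes below.

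The other dnajb9 identifier, ENSDARG00000052072, was the only luminal chaperone called against wt. It had 332.3, 287.6 and 300.9 normalised counts in wt and 267.4, 241.2 and 222.3 in nrxn2 full. The groups did not overlap, and the fall was 0.33 on the log2 scale (log2 fold change -0.33, SE 0.10), with an adjusted p that rounded to 0.05 from below. It was lost with TMM factors (0.053), with no filter on low counts (0.079), with the replicate block (0.085), in the fit to 6 libraries (0.33) and when wt replicate 1 (0.16), wt replicate 5 (0.083), nrxn2 full replicate 2 (0.13) or nrxn2 full replicate 3 (0.2) was left out.

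**Figure D3:**
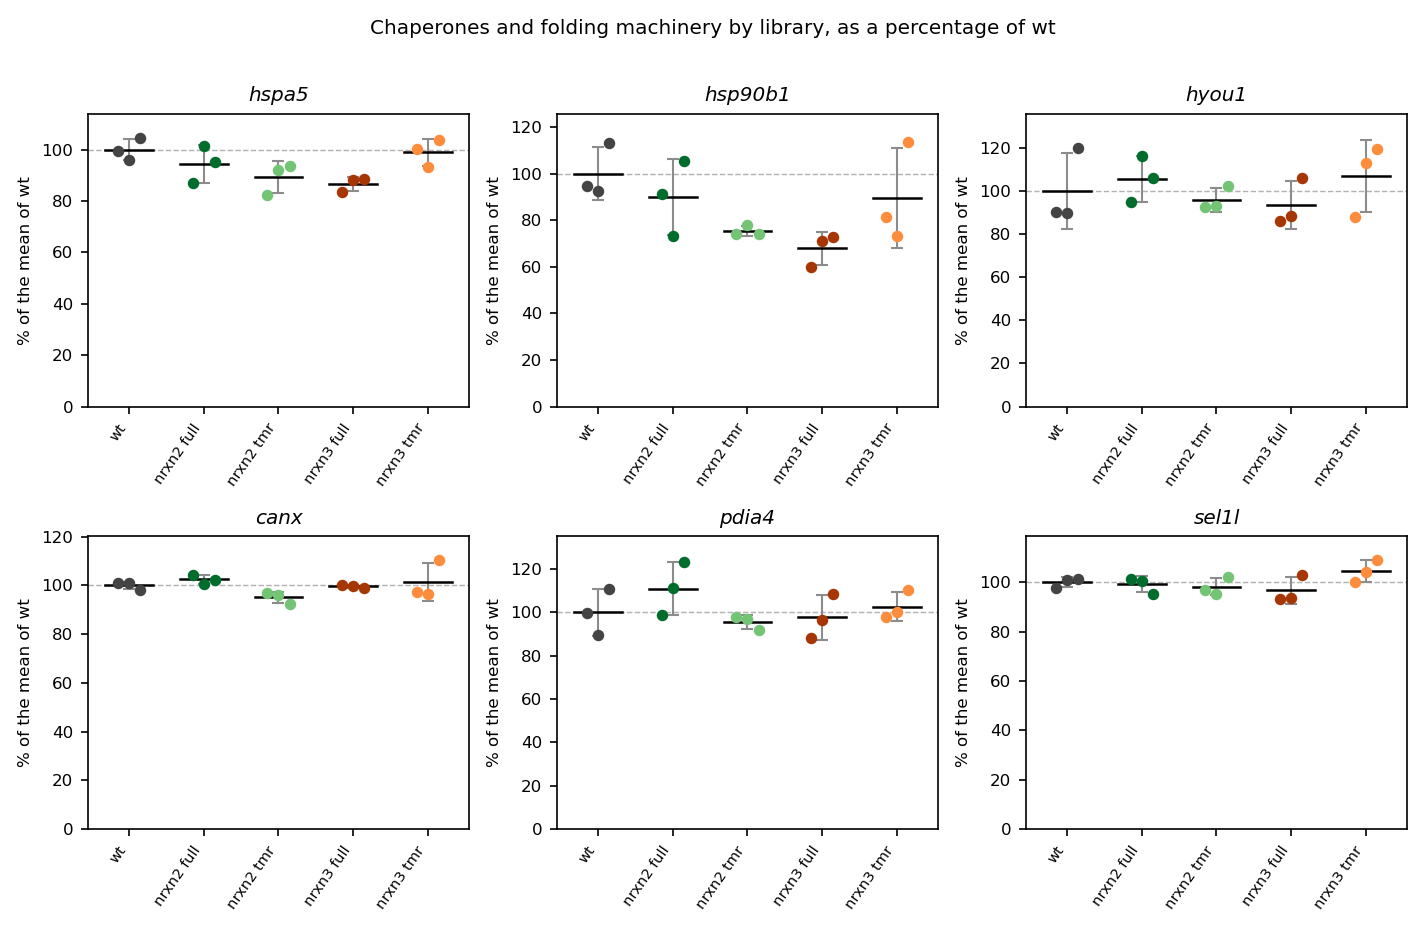
Levels of 6 chaperones and folding factors in each library (points), as a percentage of the mean of the 3 wt libraries (y axis, from 0), by genotype (x axis). Black lines give the mean and grey bars the SD of 3 libraries. The means of hspa5 run from 86.7% to 100% and those of hsp90b1 from 67.9% in nrxn3 full to 100% in wt.

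Of the lectin chaperones, which bind glycoproteins through a trimmed sugar, calreticulin (calr) fell in the nrxn2 tmr and nrxn3 tmr lines. It measured 8237, 8219 and 9063 normalised counts in wt. In nrxn2 tmr it measured 5522, 5757 and 5510, and in nrxn3 tmr 5717, 6040 and 6672, so that each library of both lines lay below each wt library. The means were 65.8% and 72.2% of wt. The log2 fold change was -0.60 (SE 0.11, edgeR adjusted p = 0.0017) in nrxn2 tmr and -0.47 (SE 0.11, adjusted p = 0.0109) in nrxn3 tmr. The latter was lost without nrxn3 tmr replicate 3 (adjusted p = 0.057). Some markers of other tissues were also lower in these lines. The skin marker krt4 was called lower in both (adjusted p = 0.0024 in nrxn2 tmr and 0.0034 in nrxn3 tmr), 1 of 5 skin markers tested in each. Summed endothelial markers ran from 3841 to 4163 in nrxn2 tmr and from 3621 to 4173 in nrxn3 tmr, against 4206 to 5369 in wt. Of 6 tested, 1 was called lower in nrxn2 tmr, slc2a1a (ENSDARG00000001437, adjusted p = 0.0027), and none in nrxn3 tmr. The median log2 fold change of the 6 was only -0.06 in nrxn2 tmr and -0.10 in nrxn3 tmr. The oligodendrocyte marker mpz was lower in nrxn2 tmr (log2 fold change -0.98, adjusted p = 0.013), 1 of 7 tested. The summed oligodendrocyte markers of nrxn2 tmr, 235271 to 309827, lay within the wt range of 225216 to 458475. The part of these cells in the lower calr was not tested.

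The full lines were not called for calr. nrxn2 full had 6691, 8247 and 8936, a mean of 93.6% of wt, and overlapped it. nrxn3 full lay lower, with 5770, 6799 and 7561 at 78.9%, and missed the threshold (adjusted p = 0.0568). When nrxn2 full was tested against nrxn2 tmr, without the wt libraries, calr was higher in nrxn2 full by 0.51 on the log2 scale (SE 0.11, adjusted p = 0.00553). Its relatives did not follow: calr3a ran from -0.17 to 0.09 and calr3b from -0.31 to -0.08 in the 4 lines, and membrane-bound calnexin (canx) from -0.07 to 0.04 with intervals from -0.19 to 0.15. None of these 3 was called. calr, calr3a and calr3b are paralogs, and the gene counting of STAR, which the study used, leaves out reads that map to more than 1 place.

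Among the thiol and proline enzymes, 7 of 11 were called in no comparison. pdia4, pdia5 and pdia6, disulphide isomerases, lay between -0.11 and 0.17 in the 4 lines. txndc5 had 1124, 1187 and 1259 in nrxn3 full against 1272, 1413 and 1424 in wt, without overlap, and missed the threshold (log2 fold change -0.20, SE 0.08, adjusted p = 0.111). pdia3, which works with calreticulin and calnexin, was called in no line against wt but was higher in nrxn2 full than in nrxn2 tmr, with 3725, 4219 and 4270 against 3245, 3398 and 3234 (log2 fold change 0.31, SE 0.08, adjusted p = 0.0171). The call was lost without nrxn2 full replicate 2 (0.067) or 3 (0.079) and without nrxn2 tmr replicate 1 (0.058) or 3 (0.059). The 2 serpinh1 identifiers, of a collagen chaperone, were called nowhere and ran from -0.53 to -0.16.

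ppib, a proline isomerase of the ER known for its part in collagen folding, rose in nrxn2 full. It had 4318, 4541 and 4391 normalised counts in wt and 4679, 5594 and 6157 in nrxn2 full, all above wt, at 124% (log2 fold change 0.31, SE 0.08, adjusted p = 0.0273). Against nrxn2 tmr, with 4206, 4661 and 4481, it was higher by 0.30 (SE 0.08, adjusted p = 0.0286), although nrxn2 full replicate 1 lay only just above the highest nrxn2 tmr library. Both calls were lost when any of several single libraries was left out. The first was lost without wt replicate 1 (0.081) or 5 (0.07) and without nrxn2 full replicate 2 (0.081) or 3 (0.16). The second was lost without nrxn2 full replicate 2 (0.088) or 3 (0.17) and without nrxn2 tmr replicate 1 (0.11) or 3 (0.071).

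pdia2, a disulphide isomerase known from the pancreas, had few counts. It had 36.6, 41.1 and 73.3 normalised counts in wt and 16.9, 9.49 and 14.2 in nrxn2 tmr, with no overlap, and fell by 1.89 on the log2 scale (log2 fold change -1.89, SE 0.47, adjusted p = 0.0169). The call was lost without wt replicate 5 (0.073) or nrxn2 tmr replicates 2 (0.078) or 3 (0.055).

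ero1a, the oxidase that hands oxidising equivalents to the disulphide isomerases, was low in 1 of the 4 lines. It had 601, 898 and 649 normalised counts in wt and 189, 172 and 205 in nrxn3 full, and no library of the other 4 genotypes fell below 406. nrxn3 full was thus at 26.3% of wt, with an SD of 16.5 counts and a gap to the rest. The log2 fold change was -1.92 (SE 0.23, adjusted p = 3.26e-05), and the call held under the 11 alternatives tried. Of 5 blood markers, 1 was called lower in nrxn3 full, hbaa1 (log2 fold change -1.49, adjusted p = 0.046), and their part in the ero1a difference was not tested.

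The other line of the same neurexin did not share the low ero1a. nrxn3 tmr had 818, 700 and 736, and nrxn3 full lay below it by 1.99 (log2 fold change -1.99, SE 0.23, adjusted p = 2.5e-05). In the RefSeq annotation of another assembly, GRCz12tu, ero1a is on chromosome 17, as is nrxn3a, with 39 protein-coding genes between. Whether linked sequence plays a part was not tested. nrxn2 tmr had 683, 473 and 406, within or below the range of wt, and was not called.

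The sensors held the largest differences. ern1, the kinase and nuclease that splices xbp1 mRNA, sat at 3 separate levels across the 15 libraries. At the lowest were wt, with 947, 866 and 948 normalised counts, and nrxn2 full, with 1010, 845 and 900. nrxn3 full had 2795, 2800 and 2821, and nrxn2 tmr replicate 1 had 2661. The highest were nrxn2 tmr replicates 2 and 3, with 4192 and 4423, and nrxn3 tmr, with 4228, 4728 and 4304. No library lay between 1010 and 2661 or between 2821 and 4192.

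Within most genotypes the spread of ern1 was small, with an SD of 13.9 counts around a mean of 2805 in nrxn3 full. nrxn2 tmr was the exception, since its libraries fell into 2 levels. Relative to wt the means were 305% in nrxn3 full, 408% in nrxn2 tmr and 480% in nrxn3 tmr. The log2 fold changes were 1.61, 2.03 and 2.26, each with an SE of 0.13, and the adjusted p-values 1.88e-07, 8.77e-09 and 3.21e-09. nrxn2 full stood at 99.8% of wt and was not called. The 3 calls against wt held under each alternative tried.

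In both neurexin pairs ern1 was lower in the full line than in the tmr line. It was lower in nrxn2 full than in nrxn2 tmr by 2.03 (log2 fold change -2.03, SE 0.13, adjusted p = 8.49e-09). It was lower in nrxn3 full than in nrxn3 tmr by 0.66 (log2 fold change -0.66, SE 0.13, adjusted p = 0.00444). Both calls held under the 10 alternatives tried. The place of ern1 relative to the nrxn2 and nrxn3 genes is not given here, and linked sequence was not tested.

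**Figure D4:**
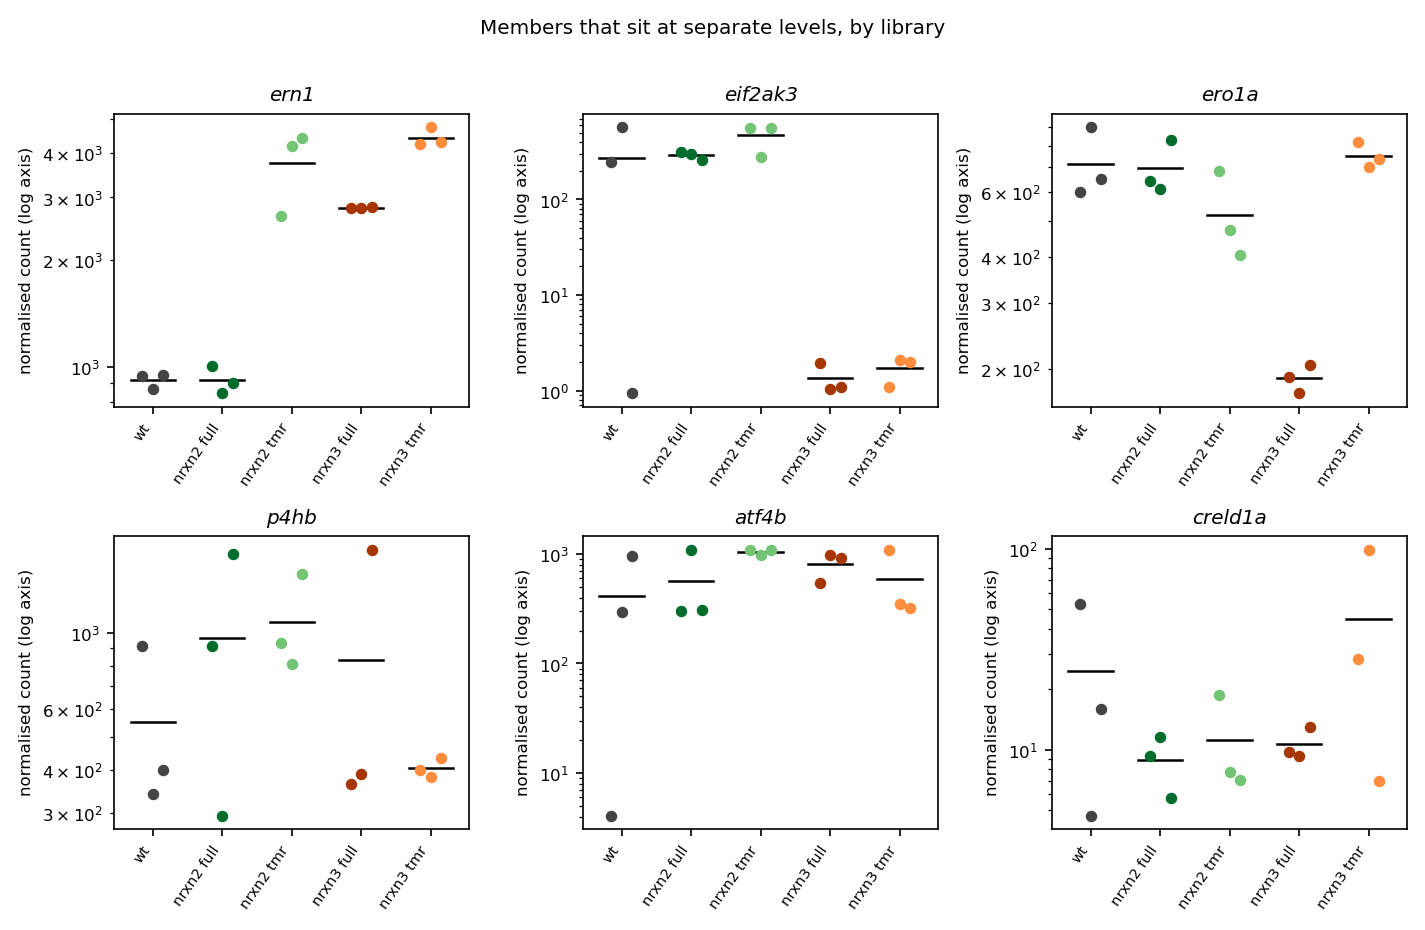
Normalised counts (log y axis) of 6 members in each library (points) by genotype (x axis), with the mean of 3 libraries (black line). ern1 sits at 3 levels, ero1a is low in nrxn3 full, and eif2ak3 is either at most 2.10 or at least 245.9.

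eif2ak3, the kinase PERK that slows translation, was either close to absent or plainly present. The raw counts in wt were 242, 486 and 1. They were 336, 314 and 266 in nrxn2 full and 604, 326 and 552 in nrxn2 tmr. They were 2, 1 and 1 in nrxn3 full and 1, 2 and 2 in nrxn3 tmr. Of the 15 libraries, the 6 of the nrxn3 lines and 1 of wt thus had at most 2 counts, and the rest at least 242.

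Because 1 wt library was itself near 0, the groups overlapped, and a fold change against wt has little meaning here. edgeR called eif2ak3 in nrxn3 full (adjusted p = 0.0474) and not in nrxn3 tmr (adjusted p = 0.0548), which had as few counts. The difference between these 2 lines was tested and not called (adjusted p = 0.985). The nrxn3 full call was lost without wt replicate 1 (0.067) or 3 (0.12) and without nrxn3 full replicates 2 (0.14), 3 (0.15) or 4 (0.14). The fitted fold change is not given, since the line had 4 counts in all.

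atf4b, 1 of the 2 atf4 genes, also varied widely inside genotypes, 234-fold between wt libraries beside 607-fold for eif2ak3. p4hb, a disulphide isomerase and subunit of the collagen prolyl hydroxylase, varied less. Its libraries were 2.68-fold apart in wt, 5.72-fold in nrxn2 full, 1.83-fold in nrxn2 tmr, 4.75-fold in nrxn3 full and 1.14-fold in nrxn3 tmr. atf4b had 4.07, 292 and 950 normalised counts in wt, and in the lines from 299.9 to 349, at 548, or from 918 to 1094. p4hb had 917, 342 and 400 in wt, 917, 295 and 1687 in nrxn2 full and 365, 391 and 1736 in nrxn3 full. creld1a, a member of the CRELD family, had 52.84, 4.695 and 15.98 in wt and up to 98.6 in the lines. None of the 3 was called in any comparison, with SEs against wt of up to 0.97, 0.82 and 0.87 on the log2 scale. In wt, 5 of 44 members (11.4%) were more than 2-fold apart between libraries, creld1a, pdia2, p4hb, eif2ak3 and atf4b, beside 25.7% of all genes. Over the 5 genotypes the members' share ran from 2.27% to 11.4%, beside 19.9% to 26.4% of all genes.

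The other atf4 gene, atf4a, had 4515, 5781 and 4147 in wt and 3840, 3719 and 4017 in nrxn3 full, wholly below wt, where its log2 fold change of -0.32 (SE 0.11) missed the threshold (adjusted p = 0.1). In the other lines it ran from -0.20 to 0.16, with no call. atf6, the sensor cleaved in the Golgi, ran from -0.26 to 0.21 and was called in no line. It had 2595, 2545 and 2470 in nrxn2 full and 3558, 3736 and 3213 in nrxn3 tmr, with 3428, 3015 and 2647 in wt between. ddit3 (CHOP), the pro-apoptotic factor downstream of PERK, stayed within -0.05 and 0.07, with intervals from -0.27 to 0.30.

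xbp1, the target of ern1, fell in nrxn2 tmr. It had 4567, 4099 and 4577 normalised counts in wt and 2747, 3043 and 3208 in nrxn2 tmr, with no overlap, at 67.9% of wt (log2 fold change -0.56, SE 0.14, adjusted p = 0.0215). The call was lost without wt replicate 1 (0.061) or 5 (0.057) and without nrxn2 tmr replicate 1 (0.093) or 2 (0.056). nrxn2 full had 4363, 5137 and 5802, higher than nrxn2 tmr by 0.77 (SE 0.14, adjusted p = 0.00261), and that call held under the 10 alternatives tried. The gene counts do not separate spliced from unspliced xbp1, so ern1 activity was not measured. In nrxn3 tmr, where ern1 was also highest, xbp1 had 3509, 4100 and 4142 and was not called.

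The targets of the integrated stress response included asns, asparagine synthetase, an atf4 target. It had 325, 396 and 417 normalised counts in wt. It had 618, 705 and 742 in nrxn3 tmr, each above each wt library, at 182% of wt. The log2 fold change was 0.86 (SE 0.15, adjusted p = 0.00165), and the call held under the 11 alternatives tried. nrxn2 tmr, with 346, 388 and 370, was within the range of wt, and nrxn2 full, with 535, 440 and 300.2, spread to both sides of it.

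nrxn3 full had 481, 420 and 508 normalised counts of asns, each above wt, and was not called against it. It lay below nrxn3 tmr by 0.55 (log2 fold change -0.55, SE 0.15, adjusted p = 0.0421), and this call was lost with no filter on low counts (0.053), with the replicate block (0.11), without nrxn3 full replicates 2 (0.1), 3 (0.17) or 4 (0.067) and without nrxn3 tmr replicates 4 (0.11) or 5 (0.13).

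trib3, a pseudokinase induced by atf4 and CHOP, moved both ways. It had 412, 491 and 419 in wt, 530, 545 and 573 in nrxn2 full and 348, 380 and 314 in nrxn3 tmr. nrxn2 full lay wholly above wt at 125% (log2 fold change 0.32, SE 0.10, adjusted p = 0.0418) and nrxn3 tmr wholly below at 78.7% (-0.34, SE 0.10, adjusted p = 0.034). Against nrxn2 tmr, with 474, 409 and 435, nrxn2 full was higher by 0.32 (SE 0.10, adjusted p = 0.035). In nrxn3 tmr, asns and trib3, both atf4 targets, were thus on opposite sides of wt. The nrxn2 full call was lost without wt replicate 1 (0.14) or 5 (0.13) or nrxn2 full replicate 2 (0.089) or 3 (0.14), and that in nrxn3 tmr without wt replicate 3 (0.16) or nrxn3 tmr replicate 3 (0.088) or 5 (0.14). The call against nrxn2 tmr was lost without nrxn2 full replicate 2 (0.081) or 3 (0.13) or nrxn2 tmr replicate 2 (0.12) or 3 (0.095).

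chac1, which degrades glutathione, and ddit4, an inhibitor of mTOR signalling, were called in no line. chac1 ran from -0.14 to 0.31, the latter in nrxn2 full, where it had 10867, 13652 and 14067 against 10159, 9972 and 11052 in wt. ddit4 ran from -0.39 in nrxn3 tmr, where it had 544, 724 and 609 against 729, 859 and 879 in wt (adjusted p = 0.225), to 0.24 in nrxn2 tmr.

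**Figure D5:**
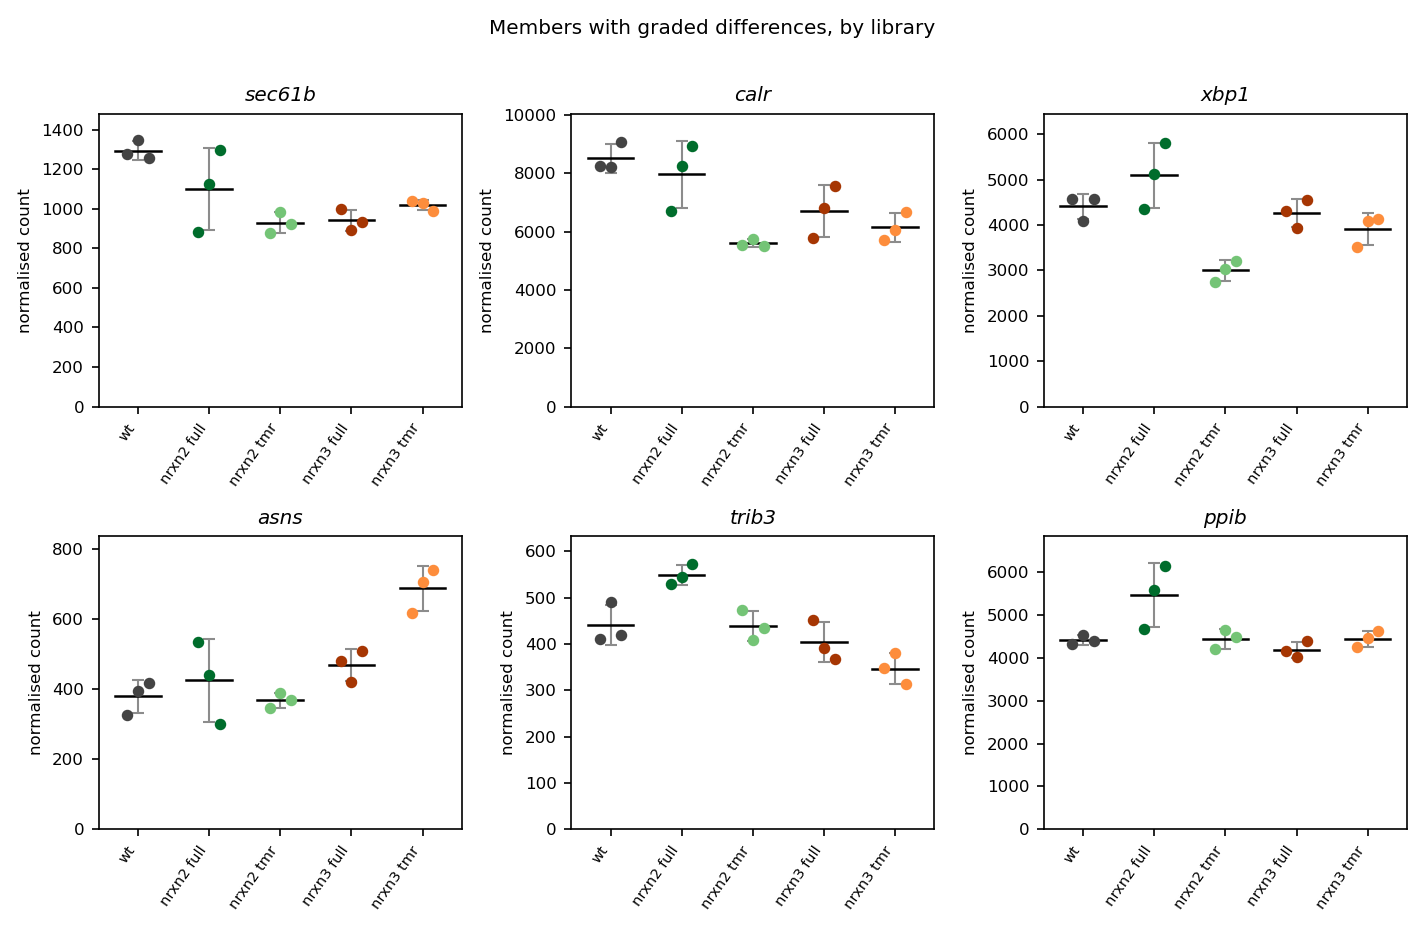
Normalised counts (y axis, from 0) of 6 members in each library (points) by genotype (x axis), with the mean (black line) and SD (grey bar) of 3 libraries. sec61b is highest in wt, calr is low in nrxn2 tmr and nrxn3 tmr, xbp1 is low in nrxn2 tmr, and asns is highest in nrxn3 tmr.

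For degradation from the ER, 4 of 5 members were called nowhere. sel1l and syvn1 (HRD1), the adaptor and the ligase of the main ER degradation complex, stayed within -0.05 to 0.06 and -0.06 to 0.06, with intervals no wider than -0.19 to 0.19. edem1, which directs misfolded glycoproteins to degradation, reached -0.29 in nrxn3 full (SE 0.09, adjusted p = 0.0604), and selenos ran from -0.15 to 0.11. herpud1, a stress-induced partner of HRD1, rose in nrxn2 full, with 2542, 2639 and 2347 normalised counts against 2119, 1970 and 2026 in wt and no overlap (log2 fold change 0.30, SE 0.09, adjusted p = 0.0372). The call was lost without wt replicate 1 (0.057), 3 (0.095) or 5 (0.089) and without nrxn2 full replicate 2 (0.13).

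The 3 members higher in nrxn2 full, herpud1, ppib and trib3, were found in a line whose glial markers also differed. Of 7 oligodendrocyte markers tested, 2 were higher in nrxn2 full than in wt, mpz (log2 fold change 1.11, adjusted p = 0.0056) and mbpb (1.22, adjusted p = 0.018), and the summed level of the list ran from 347137 to 417712 against 225216 to 458475 in wt. None of the 7 was at 0 in a group. Of 5 ependymal markers tested 1 was higher, foxj1b (log2 fold change 0.54), and their summed level ran from 916.5 to 1110 against 654.4 to 851 in wt. Radial glia and astroglia markers summed to 208976 to 235083 in nrxn2 full, wholly above the 183661 to 190712 of wt, although none of 10 tested was called. The part of these cells in the rise of herpud1, ppib and trib3 was not tested. Without nrxn2 full replicate 1, the library farthest from its group, 6 members were called in nrxn2 full against wt. The count over all genes rose there from 2282 to 4558. Without wt replicate 1, wt replicate 5 or nrxn2 full replicate 2, 0 members were called, and without nrxn2 full replicate 3, 2 were. Over all genes the count fell to 1509 without nrxn2 full replicate 2 and to 1171 without replicate 3.

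At the entry to the ER, sec61b, the β subunit of the translocation channel, had a lower mean in each line than in wt. It had 1277, 1346 and 1258 normalised counts in wt. All libraries of the 4 lines lay between 879 and 1123, below each wt library, except nrxn2 full replicate 3, which had 1297. The means ran from 71.8% of wt in nrxn2 tmr to 85.0% in nrxn2 full. The fall was called in nrxn2 tmr (log2 fold change -0.48, SE 0.11, adjusted p = 0.00787) and nrxn3 full (-0.46, SE 0.11, adjusted p = 0.0109), and not in nrxn2 full or nrxn3 tmr.

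The nrxn2 tmr call of sec61b held under the 11 alternatives tried. That of nrxn3 full was lost without nrxn3 full replicate 3 (0.055). Both calls use the same wt libraries, whose summed eye markers had a median of 45062 against 955.3 in the lines, and the part of retinal RNA in them was not tested. The 2 comparisons of full with tmr lines, which leave wt out, called sec61b in none. ssr1, of the translocon-associated complex, and ostc, of the oligosaccharyltransferase, ran from -0.08 to 0.05 and from -0.10 to 0.24 and were called nowhere.

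The full line of each neurexin was also compared with its tmr line, which does not use wt. Each kind of deletion was 1 line, so effects of the deletion and of the line cannot be told apart. In nrxn3, 3 of 44 members were called (6.82%), asns, ern1 and ero1a, each lower in nrxn3 full, beside 4.77% of all genes. In nrxn2, 6 were called (13.6%), beside 11.9%: calr, pdia3, ppib, trib3 and xbp1 were higher in nrxn2 full, and ern1 was lower. The median log2 difference of the members was 0.11 in nrxn2 and -0.09 in nrxn3. In nrxn2, 12 members were called without nrxn2 full replicate 1 and 3 without replicate 2 or 3. The count over all genes moved the same way, from 2804 to 5045 without replicate 1, 1620 without replicate 2 and 1416 without replicate 3. Oligodendrocyte markers also differed between the nrxn2 lines, 3 of 7 being higher in nrxn2 full, among them mpz (2.10) and olig2 (0.59), and their part in the member calls was not tested.

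The wider ER pathway was described from further lists of 122 tested genes for ER degradation, entry and glycosylation, glycoprotein trimming, further thiol and proline enzymes, ER vesicles, the CREB3 family and the integrated stress response. These lists, like the members, were chosen with earlier results of these data known. Against wt, 8 of 122 (6.56%) were called in nrxn2 full, beside 9.65% of all genes, 4 higher and 4 lower. In nrxn2 tmr 16 were called (13.1%, beside 8.48%), 4 higher and 12 lower. In nrxn3 full 17 were called (13.9%, beside 8.13%), 5 higher and 12 lower. In nrxn3 tmr 15 were called (12.3%, beside 7.32%), 7 higher and 8 lower. The higher genes of each line include nupr1b, whose calls depend on the filter on low counts, as described below. Between the nrxn2 lines 19 were called (15.6%), beside 11.9%, 15 of them higher in nrxn2 full. As for the members, most of the genes in these lists passed no test.

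In the entry list, dad1 and ost4, small subunits of the oligosaccharyltransferase, were called in several lines. dad1 was lower in nrxn2 tmr (log2 fold change -0.62) and nrxn3 tmr (-0.45) but higher in nrxn3 full (0.50, adjusted p = 0.0087). ost4 was lower by 0.31 in nrxn2 tmr and in nrxn3 full (log2 fold change -0.31 in each) and by 0.22 in nrxn3 tmr (-0.22). In the glycoprotein list, both identifiers named ganab, glucosidase II, were lower in nrxn2 tmr (log2 fold change -0.21 for ENSDARG00000076811 and -0.25 for ENSDARG00000076888). The first was also lower in nrxn3 tmr (-0.20) and the second in nrxn3 full (-0.33). fkbp10b, a proline isomerase of the ER, was higher in nrxn2 full (log2 fold change 0.82, adjusted p = 0.0022), nrxn3 tmr (0.62) and nrxn3 full (0.51).

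In the integrated stress response list, genes were called in both directions. nupr1b, a relative of a stress-induced nuclear factor of mammals, had 1 count in all in wt. It had 39 to 74 in all in each line, although 1 nrxn2 tmr library had 0. No wt library reached the 10 counts of the filter, so nupr1b was tested only through libraries of mutant lines, where it is high. Its calls as higher in each of the 4 lines (edgeR, adjusted p = 0.0082 to 0.026) thus depend on that filter and on the same wt libraries. nupr1b is among the genes counted as higher in each line, both for this list below and for the wider ER lists together above. In each line, those counts of higher genes thus include 1 call that the filter favoured. Of the serine synthesis enzymes, psat1 was higher in nrxn2 full and nrxn3 tmr (log2 fold changes 0.45 and 0.72), and phgdh was higher in each line, from 0.51 in nrxn3 full to 0.71 in nrxn2 full. slc7a11, the cystine transporter, was called in no line against wt and was higher in nrxn2 full than in nrxn2 tmr (0.82, SE 0.17, adjusted p = 0.0044). atf3, an early stress factor, was lower in nrxn3 full (-0.89), as was aars1, the alanyl-tRNA synthetase (-1.18). slc7a5, an amino acid transporter, had 43 to 90 counts in wt, none in nrxn3 tmr and 6 in all in nrxn3 full, and was called lower in both. Across the list, 2 of 30 genes were higher and 5 lower in nrxn3 full (23.3%, beside 8.13% of all genes), and 3 were higher and 2 lower in nrxn3 tmr (16.7%, beside 7.32%). In nrxn2 full 3 were higher and 1 lower (13.3%, beside 9.65%), and in nrxn2 tmr 3 were higher and 2 lower (16.7%, beside 8.48%).

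Several wider genes were all or none or nearly so, as eif2ak3 was. In the ER degradation list, vcp had 2792 to 4613 counts in wt and 9 to 17 in nrxn2 tmr. edgeR called it lower there (log2 fold change -8.38, adjusted p = 0.013). In nrxn3 tmr its libraries ran from 13 to 2462. os9 had 235 to 880 in wt and 1 to 87 in nrxn3 tmr (edgeR log2 fold change -4.30, adjusted p = 0.047). Of 18 genes tested in that list, 1 was higher and 2 lower in nrxn2 tmr (16.7%, beside 8.48% of all genes). In nrxn3 tmr 2 were lower (11.1%, beside 7.32%). eif2ak1, another kinase of the integrated stress response, had 112 to 120 counts in wt, none in the 3 libraries of nrxn3 tmr, and 3 in all in nrxn2 tmr. slc3a2a, partner of the amino acid transporters slc7a5 and slc7a11, had 462 to 661 counts in wt and at most 3 in each library of nrxn2 full, nrxn2 tmr and nrxn3 full. Its nrxn3 tmr libraries ran from 0 to 642, so they were mixed inside 1 genotype. sec11a, of the signal peptidase, had 240 to 310 in wt, 2 in all in nrxn3 full and 1 to 40 in nrxn2 tmr, and was called lower in both lines. kdelr3, a receptor that returns ER proteins from the Golgi, had 28 to 60 in wt and at most 4 in each library of the 4 lines.

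Among the chaperones of the cytosol and mitochondria, calls were in 1 direction against wt. Of 16 genes of this list tested, none was higher and 4 to 7 were lower than wt in each line, 25% to 43.8% beside 7.32% to 9.65% of all genes, with median log2 fold changes from -0.42 to -0.30, against -0.10 to 0.05 for the 44 ER members. hsph1, a cytosolic Hsp110, was lower in each line, from -1.12 (SE 0.13, adjusted p = 3.6e-05) in nrxn2 full to -0.56 (SE 0.13, adjusted p = 0.013) in nrxn3 tmr. hsp70.1, a stress-induced Hsp70, was lower in nrxn2 full (log2 fold change -2.11, SE 0.36, adjusted p = 0.0012), nrxn3 full (-1.43) and nrxn3 tmr (-1.32). In the comparisons without wt, the list had 2 higher and 1 lower in nrxn2 and 1 higher in nrxn3. The lists were chosen with earlier results of these data known. The difference between them was not tested, and both rest on the same wt libraries.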

How the data were processed

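The values the authors deposited were raw read counts per gene, not normalised, for 37241 Ensembl genes in 24 libraries, made with a stranded mRNA kit. The submitters' processing notes name FastQC 0.11.9, MultiQC 1.9, Trimmomatic 0.39 and STAR 2.7.11b, and the build GRCz11. STAR counted reads per gene (its GeneCounts mode, per the paper, which takes uniquely mapped reads). Which strand column was kept is not known here, so overlapping genes are uncertain, and near-identical genes may be undercounted. A symbol was found for 29201 identifiers (78.4%).

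Normalised counts were raw counts divided by the DESeq2 (1.42.0) size factor of the library. A gene was tested where 3 or more libraries had 10 or more counts (23641 genes). One robust quasi-likelihood model of edgeR (4.0.16, R 4.3.3) was fitted to all 24 libraries together, some of whose results are not reported here, with Benjamini-Hochberg adjustment over every tested gene. The SE is the absolute log2 fold change over the root of F, and 95% intervals used 16 residual degrees of freedom. In counts simulated for nrxn3 full against wt (23282 genes), 28%, 56%, 78% and 88% of genes changed 1.5-fold, 2-fold, 4-fold and 8-fold were recovered, and 3 of 128 calls were unchanged genes. Only a few genes, none with a low mean count, were changed in this simulation, whereas 1923 were called in the data. These shares thus do not describe the recovery or false calls of the real comparison, nor genes with few counts. Library totals ran from 28512102 to 39342435. Libraries of 1 genotype differed by more than sampling noise (chi-square per gene 20.4 to 51).

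Groups came from the genotype label. The members, the wider lists and the markers were chosen with earlier results of these data known. Members called in at least 1 comparison were given with their statistics, and up to 4 called genes per wider list and comparison could be named. Alternatives were TMM factors, DESeq2's test, no filter, a replicate block, fits to 6 libraries (1 line with wt) and leaving out each library. Gene order came from RefSeq's GRCz12tu. Promoter and protein sequences were not used here, and the motif and C-terminus searches planned were not run.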

Additional observations from a re-analysis of the deposited data

Results flagged for a closer look

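The full and tmr lines of the same neurexin pair were compared directly, 1 line for each kind of deletion. In ER genes 9 differences passed the test (edgeR, Benjamini-Hochberg adjusted p under 0.05), each given here as full minus tmr on the log2 scale. They were 6 of 44 members in nrxn2 (13.6%, beside 11.9% of all genes) and 3 of 44 in nrxn3 (6.82%, beside 4.77%), close to the background. In nrxn2, ern1 differed by -2.03, xbp1 by 0.77, calr by 0.51, trib3 by 0.32, pdia3 by 0.31 and ppib by 0.30. In nrxn3, ero1a differed by -1.99, ern1 by -0.66 and asns by -0.55. The sign of the ern1 difference was thus negative in both pairs, and whether these 2 differences differ from each other was not tested.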

How the results depend on the processing

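Of the 26 calls of ER genes, 12 held under each alternative tried, 14 were lost under at least 1 and 0 changed sign. The calls that held include those of ern1, calr and sec61b in nrxn2 tmr, ero1a in nrxn3 full and asns in nrxn3 tmr. Members called in nrxn2 full against wt (main count 4) fell to 0 when only the 6 libraries of the line and wt were fitted, and to 2 with no filter on low counts. Over all genes the count there fell from 2282 to 916 and 1979. With DESeq2's test the members called rose to 8 in nrxn3 full and to 10 between the nrxn2 lines. Calls over all genes rose too, from 1923 to 2718 and from 2804 to 3900. With 1 library left out, the count of members ran from 0 to 6 in nrxn2 full, 3 to 5 in nrxn2 tmr, 2 to 6 in nrxn3 full, 2 to 5 in nrxn3 tmr and 3 to 12 between the nrxn2 lines. The counts over all genes are given below. The 12 came without nrxn2 full replicate 1. In the 6-library fits the calls lost were herpud1 (adjusted p = 0.11), trib3 (0.24), ppib (0.24) and dnajb9 ENSDARG00000052072 (0.33) in nrxn2 full, pdia2 (0.051) in nrxn2 tmr and trib3 (0.25) in nrxn3 tmr. With no filter, trib3 (0.064) and dnajb9 ENSDARG00000052072 (0.079) were lost in nrxn2 full, eif2ak3 (0.071) in nrxn3 full, trib3 in nrxn3 tmr and between the nrxn2 lines (0.054 each) and asns between the nrxn3 lines (0.053). The cause of these shifts was not tested.

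The sources used here do not say what the replicate numbers mean. Over all 24 libraries, deviations from the genotype means correlated from -0.116 to 0.124 between same-numbered libraries (53 pairs, median -0.00584) and from -0.149 to 0.169 between others (199 pairs). Such weak correlations cannot tell whether same-numbered libraries were handled together. With the replicate block the count of members was 2 in nrxn2 full, where the count over all genes fell from 2282 to 1587. In all, 5 calls were lost, trib3 in nrxn2 full (adjusted p = 0.11), in nrxn3 tmr (0.092) and between the nrxn2 lines (0.056), dnajb9 ENSDARG00000052072 in nrxn2 full (0.085) and asns between the nrxn3 lines (0.11).

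Counts over all genes moved by more than 1.5-fold with DESeq2's test between the nrxn3 lines (1828 against 1127). In the 6-library fits they were 916 against 2282 in nrxn2 full and 989 against 1730 in nrxn3 tmr. Without nrxn2 full replicate 1 they rose from 2282 to 4558 against wt and from 2804 to 5045 against nrxn2 tmr. Leaving out other libraries lowered them, at most to 1171 in nrxn2 full and 1416 between the nrxn2 lines (both without nrxn2 full replicate 3), from 2004 to 1239 in nrxn2 tmr (without its replicate 3), from 1923 to 1119 in nrxn3 full (without its replicate 3), from 1730 to 1145 in nrxn3 tmr (without its replicate 3) and from 1127 to 655 between the nrxn3 lines (without nrxn3 full replicate 2). The shares of all genes set beside the members move with these counts.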
